A study of Homo sapiens with 6 samples.

Results

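The proteasome genes of human liver cancer cells were followed after knockdown of SLU7, a spliceosome protein that acts late in pre-mRNA splicing. The members are all genes that have at least 1 protein_coding transcript and a symbol made of PSM, a letter from A to G and a number. This gave 48 of the 60607 genes in the files, out of 19664 genes with a protein_coding transcript, and they carry 487 annotated transcripts. Of these transcripts 214 are protein_coding, 164 retained_intron, 64 nonsense_mediated_decay and 45 processed_transcript. The rule reads symbols and transcript types only.

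RNA was measured in PLC/PRF/5 cells, an established human hepatocellular carcinoma line. The siSLU7 libraries (n = 3) come from cells transfected with siRNA against SLU7, and the siGL2 libraries (n = 3) from cells that received siGL2, an siRNA with an irrelevant target. Both groups were collected 48 h after transfection. All libraries come from 1 cell line, and the labels say only that the experiment was done in triplicate, so each p-value measures the spread between these libraries, which may be technical.

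The proteasome is the protease complex that degrades proteins tagged with ubiquitin. Its 20S core is a barrel of alpha rings, made of PSMA proteins, around beta rings, made of PSMB proteins, and the active sites lie on PSMB5, PSMB6 and PSMB7. Cells stimulated by interferon can replace these by PSMB8, PSMB9 and PSMB10, which gives the immunoproteasome. The 19S particle, built from PSMC ATPases that unfold substrates and PSMD subunits that bind and deubiquitinate them, caps the core, while PSME proteins form other caps, PSMG proteins help to assemble the core, and PSMF1 (PI31) was described as an inhibitor. Some genes named PSMD (PSMD5, PSMD9 and PSMD10) encode chaperones of 19S assembly rather than subunits.

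Sequences from the transcripts with the clearest differences are shown first. In PSMA4, a gene of the alpha ring on chromosome 15, the coding transcript PSMA4-209 is 1094 bases long and the processed_transcript PSMA4-203 635 bases. Among other places, they differ at the junction of exons 7 and 8. PSMA4-209 removes the intron at chr15:78545765-78546574 (plus strand, GRCh38, GENCODE 29) and PSMA4-203 the intron at chr15:78545765-78546578, so that the acceptor of PSMA4-203 lies 4 bases further downstream. The junctions read as follows, with 20 bases of exon 7 on the left and the 4 bases that PSMA4-203 lacks in capitals.
PSMA4-209: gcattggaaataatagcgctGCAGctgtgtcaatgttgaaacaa
PSMA4-203: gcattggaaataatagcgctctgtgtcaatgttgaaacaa
In PSME2, which encodes the beta subunit of the PA28 cap, the coding transcript PSME2-213 lacks 1 exon of 33 bases that PSME2-201 holds at chr14:24146208-24146240 (minus strand). That exon is in capitals between 15 flanking bases on each side.
PSME2-201: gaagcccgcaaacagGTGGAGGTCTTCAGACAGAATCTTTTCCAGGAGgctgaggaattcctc
In PSMB4, a structural beta subunit, the transcript PSMB4-204 keeps 5 introns that PSMB4-201 removes, between 175 and 393 bases long. In PSMC5, an ATPase of the 19S base, PSMC5-205 keeps intron 2 of PSMC5-201 at chr17:63828210-63829493 (plus strand), 1284 bases long. The last 30 bases of the first 2 of the kept PSMB4 introns, at chr1:151400188-151400441 and chr1:151400589-151400763 (plus strand), and of the PSMC5 intron are given with the closing AG in capitals.
PSMB4 intron 2: tcccttttctcacaaccaattccttttaAG
PSMB4 intron 3: aatgagttttgacccattgtgtcctgttAG
PSMC5 intron 2: ataatggaatttgtctcttgtctgccacAG
All 6 of these introns begin with GT and end with AG. PSMA4-215, a retained_intron transcript, keeps 3 introns of PSMA4-209, between 246 and 1441 bases long, also all with GT and AG. The sequences come from the GENCODE 29 transcripts and genome coordinates, and the estimated counts do not show which bases the reads covered.

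The labels were checked first on SLU7 itself. SLU7 had 9.23, 8.11 and 10.5 CPM in siSLU7 cells against 20.8, 17.1 and 18.3 CPM in siGL2 cells, where CPM is the count scaled to a common library size (TMM). All 3 siSLU7 libraries lay below all 3 siGL2 libraries, with a log2 fold change (siSLU7 over siGL2) of -1.02 (SE 0.19, edgeR adjusted p = 0.0139). Without replicate 1 or 2 of siSLU7 it was -1.02 and -0.93 and missed the threshold. The siSLU7 libraries held 6315740, 5191452 and 5361032 estimated counts and the siGL2 libraries 8693977, 7769866 and 7736584. Mitochondrial ribosomal RNA took 29.9% to 35.3% of the counts in siSLU7 libraries and 16.8% to 24.1% in siGL2 libraries, while 7SL RNA took 7.95% to 10.5% in siSLU7 libraries and 15.4% to 22.9% in siGL2 libraries. Their part in the results was not tested. Hepatocyte markers were present, with 10 of 10 listed genes past the filter. Their summed levels were 17395 to 23614 CPM in siSLU7 cells and 18594 to 29349 CPM in siGL2 cells, mostly from APOB and SERPINA1. ALB, which encodes albumin, was low, and APOH and TTR were lower still. In 2 of the 10 genes all siSLU7 libraries lay below all siGL2 libraries and in 2 above. Only TTR passed the test and rose, with 3.08, 4.06 and 5.23 CPM in siSLU7 cells against 1.63, 1.34 and 1.28 CPM in siGL2 cells. These rest on 20, 22 and 28 counts in siSLU7 libraries against 13, 10 and 10 in siGL2 libraries. Of 10 immune cell markers 5 passed the filter on low counts, with summed levels of 51.2 to 57.7 CPM in siSLU7 cells and 52.6 to 70.0 CPM in siGL2 cells, and HLA-DRA and TYROBP had 0 counts in every library. The summed level came mostly from LYZ and CD68. Of the 5 immune markers, PTPRC rose, with 1.85, 2.03 and 1.50 CPM in siSLU7 cells against 0.377, 0.402 and 0.511 CPM in siGL2 cells (edgeR adjusted p = 0.0227). This rests on 12, 11 and 8 counts in siSLU7 libraries against 3, 3 and 4 in siGL2 libraries. Replicate 3 of siSLU7 and replicate 1 of siGL2 stood apart from the others of their group, so counts are given with and without them.

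The 48 genes together held 13978, 12088 and 11869 counts in siSLU7 libraries against 21278, 17927 and 18553 in siGL2 libraries. As CPM without the TMM factors these are 2214, 2329 and 2214 in siSLU7 cells and 2448, 2308 and 2398 in siGL2 cells, so the groups overlapped in the total. In bulk RNA, fewer cells of a kind and less RNA per cell cannot be told apart.

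Several proteasome genes fell in siSLU7 cells and none rose. Of the 45 members that passed the filter, 8 fell and 0 rose at an adjusted p under 0.05 in edgeR, against 7.86% of all 17097 tested genes called lower and 5.93% called higher (9.78% and 6.21% of genes with a protein_coding transcript). The 8 are PSMB3, PSMB4, PSMB5 and PSMB6 of the beta ring, PSMA3 of the alpha ring, PSMC3 and PSMC4 of the 19S ATPases and PSMD2 of the 19S base. At an unadjusted p under 0.05, 13 members were lower and 1 was higher, against 2877 lower and 2587 higher among all 17097 tested genes. The log2 fold changes ran between -1.53 and 0.48 with a median of -0.19, against -0.01 over all genes and -0.05 over genes with a protein_coding transcript. Of the members 30 of 45 lay below 0, against 8629 of all 17097 tested genes and 6711 of 12551 with a protein_coding transcript. In 13 members all siSLU7 libraries lay below all siGL2 libraries and in 2 above, against 18.8% and 17.8% of all tested genes. The 3 members that did not pass were PSMB8, PSMA8 (a germ cell alpha subunit) and PSMB11 (a thymic beta subunit), the last 2 with 1 count in a single siGL2 library each.

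**Figure D1:**
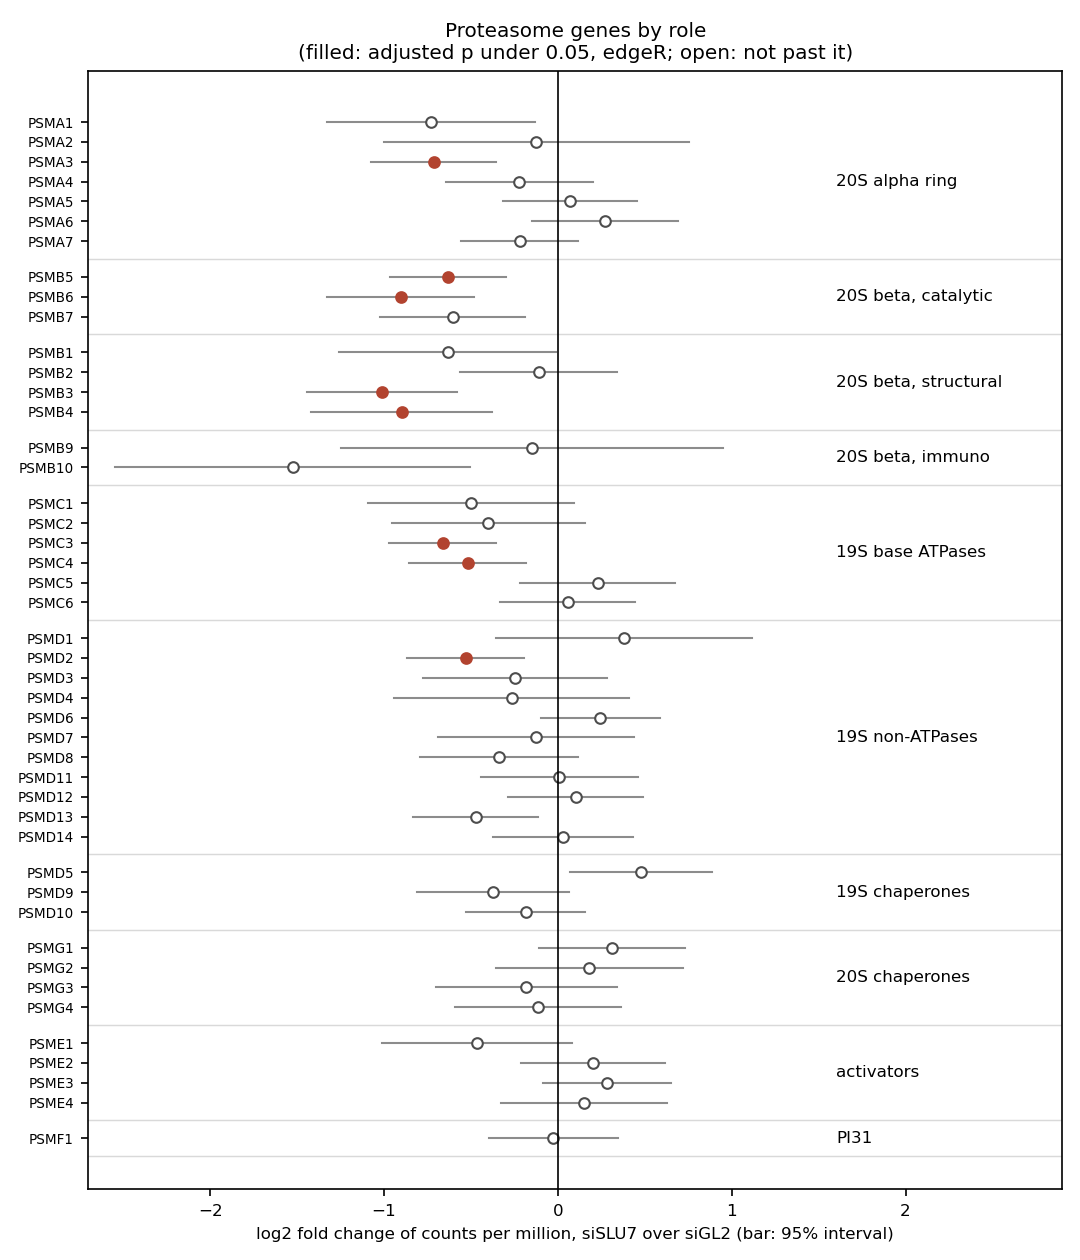
Log2 fold change of CPM, siSLU7 over siGL2, for the 45 tested proteasome genes, grouped by role down the page; bars are 95% intervals and filled points have an adjusted p under 0.05 in edgeR. The 8 filled points all lie left of 0, and 5 of them belong to the 14 constitutive core subunits. Over all tested genes 7.86% were called lower.

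The plot of fold changes by role shows 4 filled points on the beta ring, 1 on the alpha ring and 3 on the 19S particle, with the chaperones and caps scattered about 0. Of the 14 constitutive core subunits 5 fell and 12 lay below 0, with a median log2 fold change of -0.62. The 17 tested subunits of the 19S particle had 3 that fell and 10 below 0, with a median of -0.25. Of all 17097 tested genes 7.86% were called lower and 8629 lay below 0. The median of the 4 PSME caps was 0.18 and that of the 4 PSMG chaperones 0.03, and none of these 8 passed the test. No difference between these role groups was tested.

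The number of calls depended on single libraries. Without replicate 1 of siGL2, 13 members fell, against 13.6% of all genes called lower in that fit. Without replicate 3 of siSLU7 only PSMB3 fell, against 3.24% of all genes. Without replicate 2 or 3 of siGL2 0 members were called, against 2.58% and 3.33% of all genes called in either direction, and without replicate 1 or 2 of siSLU7 also 0, against 1.78% and 0.0%. With both libraries that stood apart left out, an analysis chosen after seeing the data, the same 8 genes fell together with PSMA1, PSMB1, PSMB7, PSMB10 and PSMD13, PSME3 rose, and 15.7% of all genes were called lower and 14.1% higher. The direction held in each of these fits for the 8 genes, with log2 fold changes between -1.15 and -0.46 when 1 library was left out.

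Of the catalytic subunits of the constitutive core, PSMB5 and PSMB6 fell. PSMB5 (ENSG00000100804.19, chr14:23016543-23035230, minus strand), the subunit with chymotrypsin-like activity, had 51.1, 48.1 and 41.9 CPM in siSLU7 cells against 71.2, 79.8 and 67.9 CPM in siGL2 cells. The groups did not overlap, and the log2 fold change was -0.63 (SE 0.15, edgeR adjusted p = 0.0271). PSMB6 (ENSG00000142507.10, chr17:4796144-4798503, plus strand), with caspase-like activity, had 27.7, 25.3 and 22.2 CPM in siSLU7 cells against 38.2, 56.9 and 45.9 CPM in siGL2 cells. Every siSLU7 library was again below every siGL2 library (-0.90, SE 0.19, edgeR adjusted p = 0.0192). PSMB7 (ENSG00000136930.13, chr9:124353466-124415444, minus strand), with trypsin-like activity, had 31.6, 36.3 and 25.1 CPM in siSLU7 cells against 40.3, 53.0 and 48.0 CPM in siGL2 cells. Its groups did not overlap either, and its log2 fold change of -0.60 (SE 0.18) missed the threshold with an edgeR adjusted p of 0.0600. Summed, the 3 genes had 110.4, 109.7 and 89.2 CPM in siSLU7 cells against 149.7, 189.8 and 161.8 CPM in siGL2 cells.

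The structural beta subunits PSMB3 and PSMB4 fell, and PSMB3 had the largest fall of the 8 called genes. PSMB3 (ENSG00000277791.5, chr17:38752736-38764231, plus strand) had 14.2, 13.1 and 14.0 CPM in siSLU7 cells against 22.2, 33.3 and 27.9 CPM in siGL2 cells (13.8 ± 0.582 and 27.8 ± 5.56, mean ± SD, n = 3 each). The siSLU7 libraries lay close together and below all siGL2 libraries (-1.01, SE 0.19, edgeR adjusted p = 0.0153). PSMB4 (ENSG00000159377.11, chr1:151399534-151401944, plus strand) had 16.5, 14.6 and 17.6 CPM in siSLU7 cells against 22.4, 40.0 and 28.4 CPM in siGL2 cells. The siGL2 libraries spread widely but none reached down to a siSLU7 library (-0.90, SE 0.23, edgeR adjusted p = 0.0344). PSMB1 overlapped between groups (-0.63, edgeR adjusted p = 0.152), and so did PSMB2 (-0.11, edgeR adjusted p = 0.741).

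In the alpha ring only PSMA3 passed the test. PSMA3 (ENSG00000100567.13, chr14:58244831-58272012, plus strand) had 47.4, 38.0 and 34.4 CPM in siSLU7 cells against 64.2, 64.4 and 68.0 CPM in siGL2 cells. The siGL2 libraries lay close together and all above the siSLU7 libraries (-0.71, SE 0.16, edgeR adjusted p = 0.0232). PSMA1 had a fold change of the same size, -0.73 (SE 0.26, edgeR adjusted p = 0.0970), but the groups overlapped, since the siSLU7 libraries ran from 14.8 to 19.5 CPM and replicate 1 of siGL2 had 17.6 CPM. The summed alpha ring did not separate the groups, with 496.2, 524.9 and 421.6 CPM in siSLU7 cells and 511.6, 541.3 and 508.9 CPM in siGL2 cells.

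Among the 19S ATPases, PSMC3 and PSMC4 fell. PSMC3 (ENSG00000165916.9, chr11:47418769-47426473, minus strand) had 77.7, 69.1 and 74.0 CPM in siSLU7 cells against 118.9, 113.6 and 117.4 CPM in siGL2 cells, with a narrow spread in both groups (73.6 ± 4.31 and 116.6 ± 2.77, mean ± SD, n = 3 each). Its log2 fold change was -0.66 (SE 0.14, edgeR adjusted p = 0.0189). PSMC4 (ENSG00000013275.8, chr19:39971005-39981441, plus strand) had 39.6, 43.1 and 38.5 CPM in siSLU7 cells against 59.9, 63.2 and 50.5 CPM in siGL2 cells. The groups did not overlap (-0.52, SE 0.15), but the call sat on the threshold, with an edgeR adjusted p of 0.0499, or 0.0501 when estimated counts were rounded after summing.

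PSMD2 (ENSG00000175166.17, chr3:184298709-184309054, plus strand), the scaffold subunit that docks ubiquitin receptors, was the member of the non-ATPase group with the smallest p. It had 167.2, 182.3 and 158.0 CPM in siSLU7 cells against 248.0, 244.7 and 240.2 CPM in siGL2 cells. The groups were far apart against their spread (-0.53, SE 0.15, edgeR adjusted p = 0.0464). The other 10 subunits of this group did not pass, and their log2 fold changes lay no higher than 0.38. PSMD13, a lid subunit, came nearest (-0.47, edgeR adjusted p = 0.0795).

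**Figure D2:**
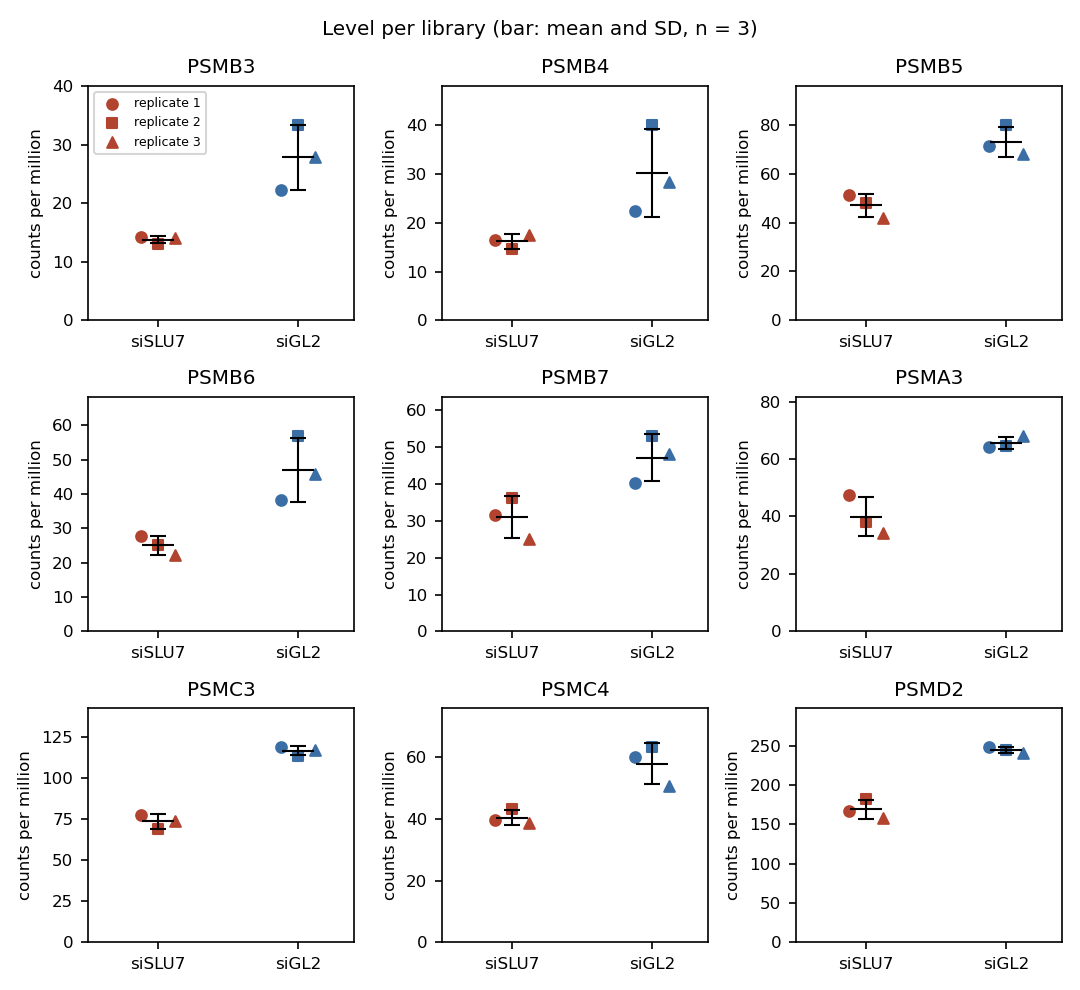
CPM in each library for 9 proteasome genes, siSLU7 left and siGL2 right in each panel; marker shapes give the replicate and the bar the mean and SD (n = 3). In all 9 panels the siSLU7 points lie below the siGL2 points, including PSMB7, whose adjusted p of 0.0600 missed the threshold.

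The panels of single libraries show that the siGL2 spread differed between genes, wide for PSMB4 and PSMB6 and narrow for PSMC3 and PSMD2. Of the chaperones, the caps and the inhibitor none passed the test. PSMD5, a chaperone of the 19S base, had 16.6, 16.0 and 20.9 CPM in siSLU7 cells against 13.7, 12.9 and 11.9 CPM in siGL2 cells. It was higher in all siSLU7 libraries but missed the threshold (0.48, SE 0.18, edgeR adjusted p = 0.107). PSMG1, a chaperone of alpha ring assembly, had 12.6, 14.0 and 11.2 CPM in siSLU7 cells against 9.29, 11.1 and 10.1 CPM in siGL2 cells (0.31, edgeR adjusted p = 0.285). Its groups were apart by a narrow margin. PSME1, the alpha subunit of the PA28 cap, had 7.23, 10.7 and 10.1 CPM in siSLU7 cells against 12.7, 15.8 and 10.1 CPM in siGL2 cells, with overlap (edgeR adjusted p = 0.219). PSMF1 had 28.5, 30.6 and 33.8 CPM in siSLU7 cells against 26.6, 34.8 and 33.1 CPM in siGL2 cells. The 95% interval of its log2 fold change ran between -0.40 and 0.35.

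The immunoproteasome subunits were scarce in both groups. PSMB8 (chr6:32840717-32844703, minus strand) had 0 estimated counts in every library. A count of 0 allows up to 3 counts, which is 0.475, 0.578 and 0.560 CPM (without the TMM factors) in siSLU7 libraries and 0.345, 0.386 and 0.388 in siGL2 libraries, covering counting error only. PSMB9 (chr6:32844136-32859585, plus strand) had 13, 8 and 4 counts in siSLU7 libraries against 11, 8 and 18 in siGL2 libraries, with overlapping groups (-0.15, edgeR adjusted p = 0.860). PSMB10 (chr16:67934502-67937087, minus strand) had 13, 14 and 3 counts in siSLU7 libraries against 30, 44 and 42 in siGL2 libraries. Its level of 0.561 to 2.58 CPM in siSLU7 cells lay below the 3.77, 5.89 and 5.37 CPM in siGL2 cells, with a log2 fold change of -1.53 (SE 0.45) and an edgeR adjusted p of 0.0544, or 0.0474 with rounding after summing.

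Most of these few counts lay on retained_intron transcripts, 85.5% for PSMB9 and 87.7% for PSMB10 over all libraries. The coding transcripts of PSMB10 held 5, 2 and 1 counts in siSLU7 libraries and 6, 0 and 4 in siGL2 libraries, so the separation of the gene rests on its retained_intron counts, which were 8, 12 and 2 in siSLU7 libraries and 24, 44 and 38 in siGL2 libraries. PSMB8 and PSMB9 share 139 exon bases on opposite strands, and 34.8% of the exon bases of PSMB10 are shared with another gene on its strand, so their reads may be split.

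Each immunoproteasome subunit takes the place of 1 constitutive subunit, and the pairs were compared within libraries. Per length, PSMB10 had 2.16, 2.31 and 0.463 TPM in siSLU7 cells and 3.39, 2.92 and 4.01 TPM in siGL2 cells, where its constitutive counterpart PSMB7 had 25.2, 26.7 and 19.7 TPM in siSLU7 cells and 22.5, 23.8 and 29.6 TPM in siGL2 cells. PSMB9 had at most 0.657 TPM in siSLU7 cells and 0.602 TPM in siGL2 cells, far under PSMB6, which had 26.8, 22.9 and 21.3 TPM in siSLU7 cells and 28.6, 30.7 and 32.8 TPM in siGL2 cells. The log2 ratio of PSMB10 to PSMB7 CPM was lower by 1.09 in siSLU7 cells, a difference of -1.09 with an exact two-sided permutation p of 0.1, the smallest that 3 against 3 allows (0.2 adjusted over the pairs). All 3 siSLU7 libraries lay below all 3 siGL2 libraries, and without replicate 3 of siSLU7 the difference was -0.61. On coding transcripts alone it was 1.23, the opposite sign, over the handful of coding counts given above. The log2 ratio of PSMB9 to PSMB6 differed by 0.72 with overlapping groups (exact two-sided permutation p = 0.3, adjusted 0.3), and the pair of PSMB8 and PSMB5 had no ratio.

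Coding and retained_intron transcripts of the members differed in the sign of their median change. Of 101 pairs of a proteasome gene and a transcript type, 3 fell and 3 rose at an adjusted p under 0.05 in edgeR, against 3.14% of all 26839 pairs called lower and 2.03% called higher. Those that fell were the coding transcripts of PSMB4, PSMD2 and PSMA3, and those that rose were the retained_intron transcripts of PSMC5 and PSMA4 and the processed_transcript type of PSMA4. Coding transcripts of members had a median log2 fold change of -0.62 over 43 pairs, against -0.19 over all 11525 coding pairs. Their retained_intron transcripts had a median of 0.53 over 32 pairs, against 0.29 over all 4779 such pairs. At an unadjusted p under 0.05, 18 coding pairs were lower and 1 higher, while 2 retained_intron pairs were lower and 10 higher. At that level 2601 of all 11525 coding pairs were lower and 838 higher. Of all 4779 retained_intron pairs 264 were lower and 1033 higher. At the adjusted threshold, 5.83% of all coding pairs were called lower and 1.02% higher, and 0.711% of all retained_intron pairs lower and 5.21% higher.

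**Figure D3:**
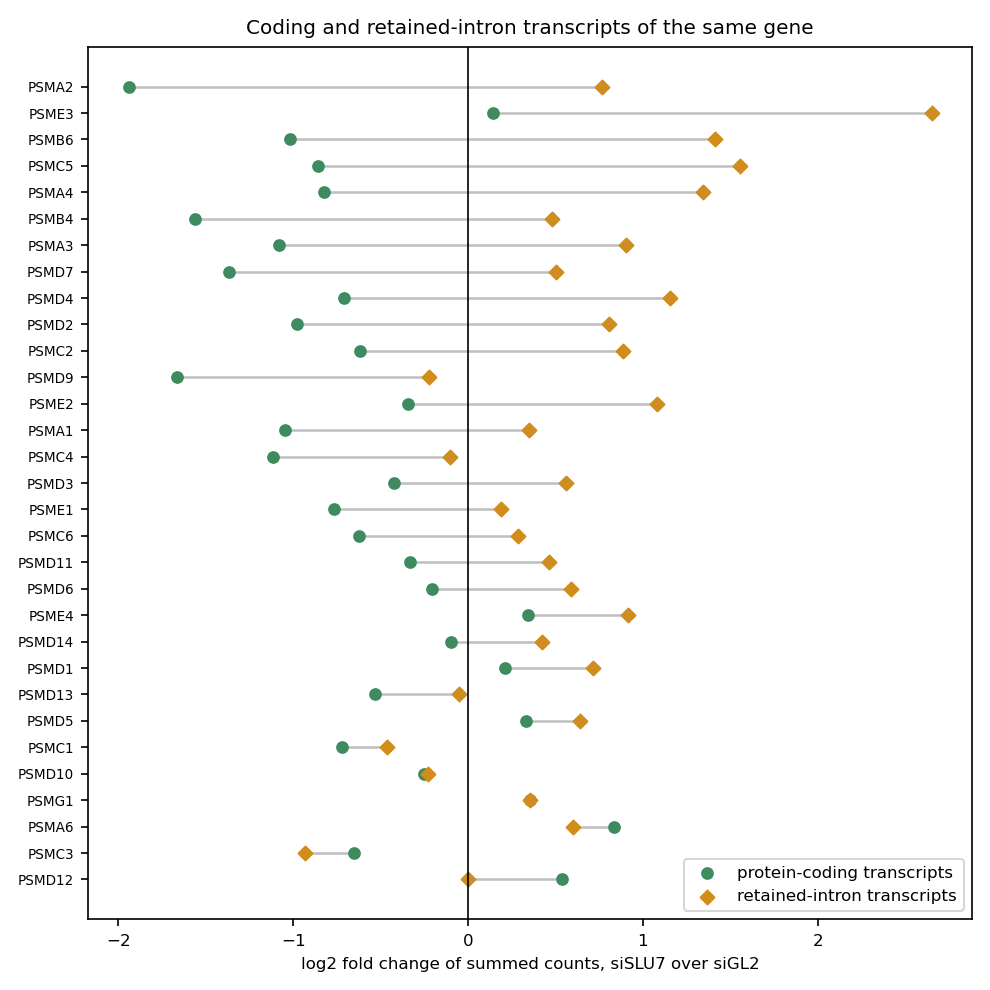
Log2 fold change, siSLU7 over siGL2, of the summed counts of coding transcripts (circles) and retained_intron transcripts (diamonds) for the 31 proteasome genes with both types tested, 1 gene per line. In 28 of 31 genes the diamond lies right of the circle. The share over all genes was not counted.

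The plot of both types per gene shows the same order in nearly every line. In 18 of the 31 genes the retained_intron value was above 0 and the coding value below 0, in 6 both were below 0 and in 6 both above. The share of all genes with this order was not counted. The medians over all coding and all retained_intron pairs, -0.19 and 0.29, had the same order. The median difference between the types was 0.98 on the log2 scale. The exceptions were PSMD12, PSMC3 and PSMA6, of which PSMC3 had -0.65 for coding and -0.93 for retained_intron transcripts.

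Within a gene, the share of retained_intron counts had a positive log2 usage difference in 29 of 31 members, against 75.5% of all genes with that type. Of the 39 members with at least 2 tested types, 2 changed their type usage in the edgeR usage test, PSMA4 and PSMA6. Over all genes with at least 2 types, 2.42% changed. The count was 6 without replicate 1 of siGL2, where 6.62% of all genes changed. PSMA4 alone was left without replicate 1 or 2 of siSLU7, where 0.951% and 0.464% of all genes changed, and both genes were called without replicate 2 or 3 of siGL2 or replicate 3 of siSLU7. Over all gene and type pairs, 0.682% were called higher in usage and 0.341% lower. The retained_intron share of the summed counts of all members was 21.6%, 23.0% and 28.8% in siSLU7 libraries against 18.4%, 12.7% and 13.1% in siGL2 libraries. For the 14 constitutive core subunits it was 11.4%, 8.99% and 11.3% in siSLU7 libraries against 3.80%, 4.65% and 5.26% in siGL2 libraries. For all other coding genes it was 13.5%, 13.3% and 13.3% in siSLU7 libraries and 10.4%, 9.65% and 10.0% in siGL2 libraries. No library of 1 group reached into the other in any of the 3 sets.

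**Figure D4:**
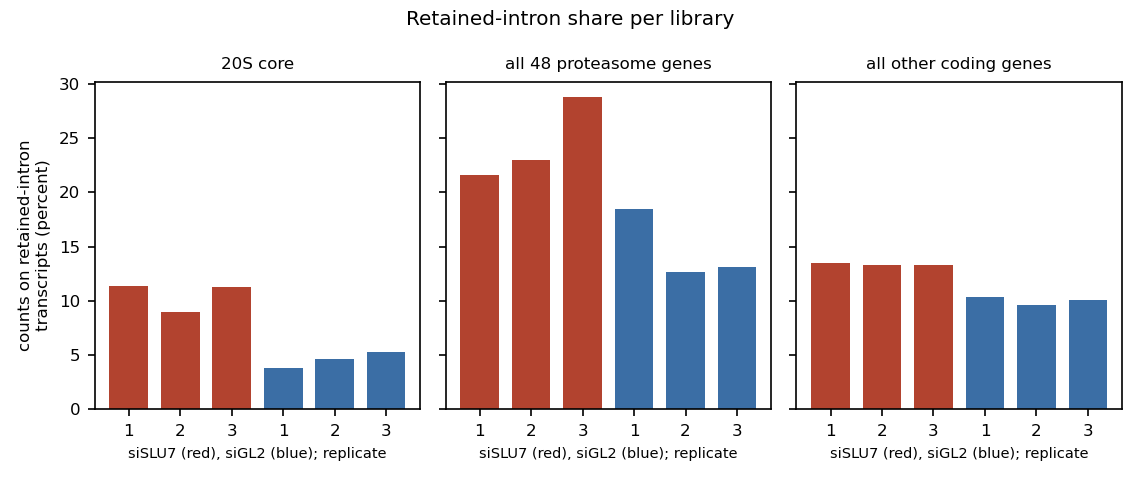
Percent of estimated counts on retained_intron transcripts in each library, siSLU7 left in red and siGL2 right in blue, for the 14 constitutive core subunits, all 48 proteasome genes and all other coding genes. The siSLU7 bars stand above the siGL2 bars in each panel, and the core subunits have the lowest siGL2 shares, between 3.80% and 5.26%.

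The bars of the core show that its retained_intron share in siSLU7 cells was near that of other coding genes in siGL2 cells. In PSMB4 the coding counts fell and the retained_intron counts did not pass the test. Its coding transcripts had 61, 47 and 46 counts in siSLU7 libraries against 162, 248 and 173 in siGL2 libraries (-1.56, edgeR adjusted p = 0.0299). Its retained_intron transcripts had 46, 32 and 48 counts in siSLU7 libraries against 16, 51 and 49 in siGL2 libraries, with overlap (0.48, edgeR adjusted p = 0.555). Their share of the gene was 43.0%, 40.5% and 51.1% in siSLU7 libraries against 8.99%, 17.1% and 22.1% in siGL2 libraries. PSMB4-204, with the 5 kept introns printed above in part, had 31, 22 and 45 counts in siSLU7 libraries against 8, 3 and 0 in siGL2 libraries. None of its other retained_intron transcripts was higher in all siSLU7 libraries. PSMB4-206 had 6, 2 and 0 counts in siSLU7 libraries against 1, 24 and 13 in siGL2 libraries. PSMB4-202 had 8, 3 and 0 against 2, 5 and 19, and PSMB4-203 had 0, 0 and 0 against 0, 3 and 12. How reads were divided between these transcripts was not tested. The groups were apart in the coding counts, the share and PSMB4-204, and the change of the retained_intron share did not pass the usage test (edgeR adjusted p = 0.172).

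The coding transcripts of PSMD2 had 728, 600 and 473 counts in siSLU7 libraries against 1482, 1510 and 1549 in siGL2 libraries (-0.98, edgeR adjusted p = 0.0320). Those of PSMA3 had 240, 139 and 107 counts in siSLU7 libraries against 455, 375 and 471 in siGL2 libraries (-1.08, edgeR adjusted p = 0.0484). All siSLU7 libraries were below all siGL2 libraries in both genes, and both coding falls were larger than the falls of the whole gene, a difference that was not past the threshold of the usage test.

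In PSMC5 the retained_intron counts rose, while the gene as a whole did not pass the test (0.23, edgeR adjusted p = 0.462). Its retained_intron transcripts had 99, 53 and 57 counts in siSLU7 libraries against 23, 31 and 36 in siGL2 libraries, where the groups were apart (1.55, edgeR adjusted p = 0.0380). They made up 62.7%, 54.1% and 63.3% of its counts in siSLU7 cells against 18.0%, 27.0% and 24.0% in siGL2 cells. PSMC5-205, with its kept intron of 1284 bases, had 42, 18 and 11 counts in siSLU7 libraries against 4, 9 and 0 in siGL2 libraries, and PSMC5-201 had 15, 16 and 18 against 35, 49 and 74. PSMC5 shares 19.5% of its exon bases with FTSJ3 on the opposite strand, and the part of that gene in these counts was not tested.

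PSMA4 changed most in its make-up. Its processed_transcript type had 82, 67 and 58 counts in siSLU7 libraries against 0, 0 and 0 in siGL2 libraries, which is at least 32.8-fold higher against a floor of 3 counts per siGL2 library (edgeR adjusted p = 0.0248). Nearly all of it was PSMA4-203, with 82, 65 and 57 counts in siSLU7 libraries and 0 in every siGL2 library. Its retained_intron transcripts had 105, 96 and 69 counts in siSLU7 libraries against 33, 56 and 47 in siGL2 libraries (1.34, edgeR adjusted p = 0.0424). The coding transcript PSMA4-209 has the 4 bases GCAG at the junction shown above. It had 27, 48 and 27 counts in siSLU7 libraries against 90, 349 and 210 in siGL2 libraries. Another coding transcript, PSMA4-219, overlapped, with 249, 155 and 109 against 448, 172 and 198. All coding transcripts of PSMA4 together had 386, 297 and 183 counts in siSLU7 libraries against 656, 678 and 614 in siGL2 libraries. They missed the threshold (-0.82, edgeR adjusted p = 0.0765). The gene as a whole did not pass the test (-0.22, edgeR adjusted p = 0.450). The 4 bases are not a whole number of codons.

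PSMA6, another alpha subunit, changed usage through its nonsense_mediated_decay transcripts, which had 57, 43 and 110 counts in siSLU7 libraries against 545, 258 and 222 in siGL2 libraries (usage -1.45, edgeR adjusted p = 0.00787). Its coding transcripts swapped between libraries of 1 group. PSMA6-201 had 565, 382 and 169 counts in siSLU7 libraries against 78, 441 and 487 in siGL2 libraries, and PSMA6-214 had 38, 320 and 344 against 308, 0 and 0. PSMA6 also shares 919 exon bases with a read-through gene on its strand. How reads were divided between these transcripts was not tested.

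At the level of single transcripts, 0 of 197 tested member transcripts passed in edgeR, as did 0.0% of all 43129 transcripts. At an unadjusted p under 0.05, 22 were lower and 16 higher, and the smallest adjusted p was 0.0994. Of all 43129 transcripts 3714 were lower and 3241 higher at the unadjusted level. Transcripts listed in 1 group alone were also counted, with at least 10 counts in each library of that group and 0 in every library of the other. PSMA4-203 was such a transcript in siSLU7 cells, as did 0.22% of all transcripts. PSME2-213, the transcript without the exon of 33 bases, was one in siGL2 cells, with 0, 0 and 0 counts in siSLU7 libraries against 38, 66 and 73 in siGL2 libraries, as did 0.41% of all transcripts. PSME2-213 was at least 13.8-fold lower in siSLU7 cells against a floor of 3 counts per library. PSME2-201, which holds the exon, had 13, 37 and 31 counts in siSLU7 libraries against 15, 0 and 0 in siGL2 libraries. The coding transcript PSME2-217 had 38, 0 and 0 against 0, 0 and 0. All coding transcripts of PSME2 together did not pass the test (-0.34, edgeR adjusted p = 0.435). How reads were divided between these transcripts was not tested. The single transcripts of PSMB4, PSMC5, PSMA4 and PSME2 described here were chosen after their values were seen.

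**Figure D5:**
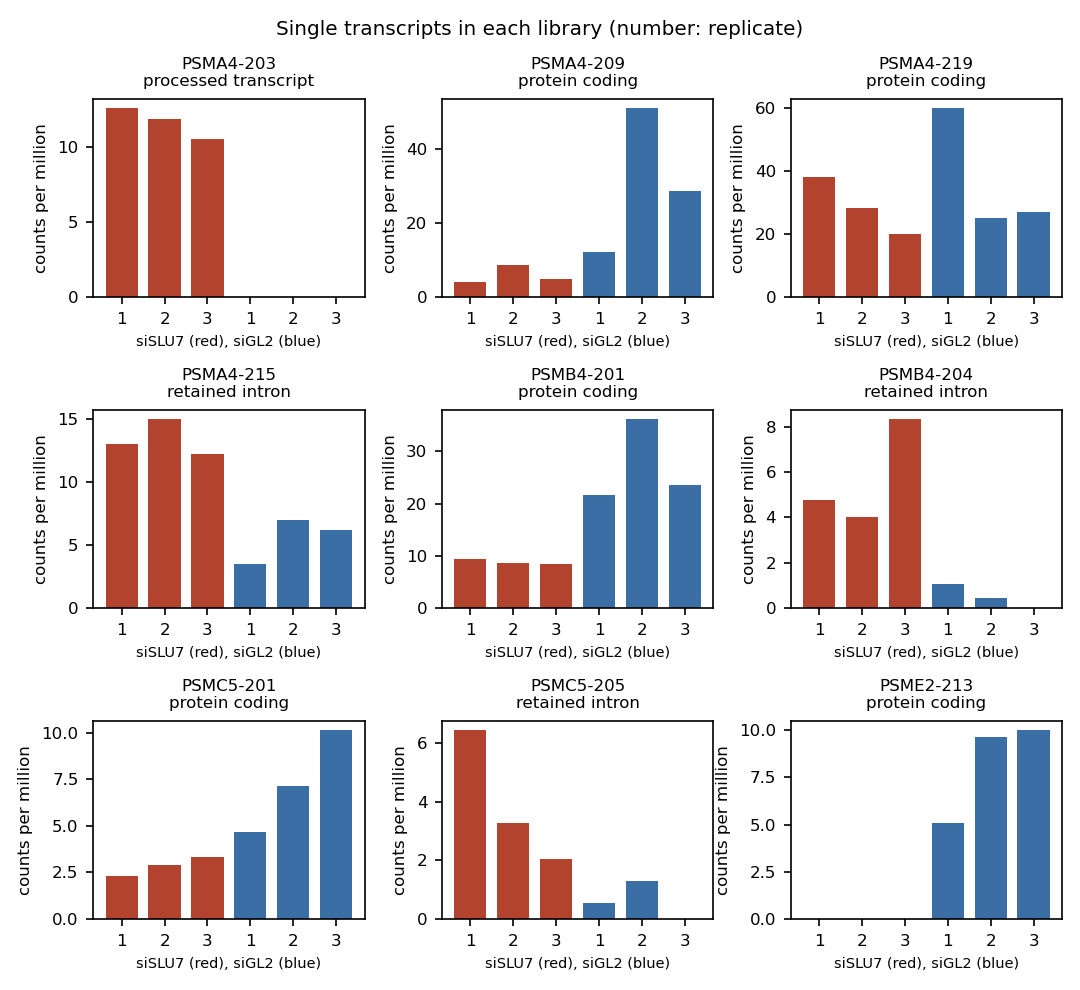
CPM of 9 single transcripts of PSMA4, PSMB4, PSMC5 and PSME2 in each library, siSLU7 left in red and siGL2 right in blue, with the replicate number under each bar. PSMA4-203 has bars in siSLU7 libraries only and PSME2-213 in siGL2 libraries only, and PSMA4-219 is the panel whose groups overlap.

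The bars of single transcripts set coding and retained_intron forms of 1 gene side by side. Some other members differed in type counts or shares without a call. PSMA2, an alpha subunit, had 77, 26 and 0 coding counts in siSLU7 libraries against 68, 240 and 170 in siGL2 libraries, with overlap. PSMD7, a lid subunit that pairs with the deubiquitinase PSMD14, had 68.0%, 74.4% and 59.1% of its counts on nonsense_mediated_decay transcripts in siSLU7 libraries against 32.9%, 40.9% and 46.9% in siGL2 libraries. PSME3, which forms a nuclear cap, had 75, 50 and 61 retained_intron counts in siSLU7 libraries against 32, 5 and 1 in siGL2 libraries. These 3 genes were chosen after their values were seen.

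With both libraries that stood apart left out, 14 of 43 coding pairs fell and 1 rose, against 12.5% and 3.71% of all coding pairs, and 5 of 33 retained_intron pairs rose, against 10.1% of all such pairs. Without replicate 1 of siGL2, 21 member pairs were called, where 11.7% of all coding pairs were called lower and 8.91% of all retained_intron pairs higher. Without any 1 of the other 5 libraries 0 member pairs were called, but 0% of all coding pairs were lower and 0% of all retained_intron pairs higher in those fits as well.

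The values in TPM put the same genes on another scale. There the median of all genes was shifted up by 0.35 in siSLU7 cells on the log2(TPM + 1) scale, so changes are read against that shift, and SLU7 itself lay at -0.063. Before that, 14 of the 45 members lay below 0. Against the shift 30 of the 45 lay lower, and so did all 8 called genes, by between -0.97 for PSMB4 and -0.05 for PSMD2. The 8 genes had been called lower in these same libraries, so their place here is no separate support. No member fell in the limma test on this scale, while PSMD5, PSMD11, PSME3 and PSME4 rose, where 0.877% of all genes were called lower and 17.4% higher. PSMB5 shows what the scale does, with 37.2, 32.6 and 29.3 TPM in siSLU7 cells and 35.9, 32.7 and 37.1 TPM in siGL2 cells, where the groups overlapped. On counts of coding transcripts alone, PSMA3, PSMB3, PSMB4, PSMD2 and PSMD9 fell and PSMA6 rose, against 7.1% of all genes called lower and 5.19% higher.

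Per length, the coding levels of the subunits were compared as a percent of the median of the 14 core subunits in the same library. PSMD2 stood at 320.1% ± 57.1 of that median in siSLU7 cells and 349.3% ± 181.5 in siGL2 cells (mean ± SD, n = 3 each). PSMA6 was the highest member in siSLU7 cells, at 479.2% ± 139.9, against 155.3% ± 48.8 in siGL2 cells. PSMB10 stood at 3.10% ± 1.97 in siSLU7 cells and 2.39% ± 2.50 in siGL2 cells, and PSMB9 at 1.36% ± 0.948 in siSLU7 cells and 0.622% ± 0.141 in siGL2 cells.

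The promoters of the members were read because several members moved together. Of the 48 genes 42 had a window around the transcription start in the RefSeq table of GRCh38.p14. The antioxidant response element, searched as TGACNNNGC on both strands, was in 13 of 42 windows (31.0%), against 13.6% of 27305 windows of the same length. A repeat of GAAA with any 2 bases between the copies, of the type bound by interferon regulatory factors, was in 6 (14.3% against 3.65%), and CCAAT was in 19 (45.2% against 35.7%). Of the called genes PSMB3 and PSMC4 held the first, PSMB4 the second, and PSMA3, PSMB3, PSMB5 and PSMC3 the third. PSMB6 had no window and was not searched. The windows of PSMB3 (chr17:38752491-38752790, plus strand), PSMB4 (chr1:151399323-151399622, plus strand) and PSMB10 (chr16:67936801-67937100, minus strand) are shown with the matches in capitals.
PSMB3: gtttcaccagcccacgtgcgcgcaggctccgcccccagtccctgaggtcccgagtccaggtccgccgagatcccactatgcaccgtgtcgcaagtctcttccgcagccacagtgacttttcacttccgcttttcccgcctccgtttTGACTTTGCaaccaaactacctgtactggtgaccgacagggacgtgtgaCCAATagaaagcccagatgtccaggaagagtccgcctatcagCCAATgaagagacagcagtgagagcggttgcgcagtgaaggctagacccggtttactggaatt
PSMB4: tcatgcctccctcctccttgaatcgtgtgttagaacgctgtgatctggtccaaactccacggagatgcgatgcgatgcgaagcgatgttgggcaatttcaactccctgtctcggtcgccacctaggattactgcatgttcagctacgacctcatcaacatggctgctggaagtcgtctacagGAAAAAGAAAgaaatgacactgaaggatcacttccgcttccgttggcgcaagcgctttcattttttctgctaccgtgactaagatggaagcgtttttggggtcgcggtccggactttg
PSMB10: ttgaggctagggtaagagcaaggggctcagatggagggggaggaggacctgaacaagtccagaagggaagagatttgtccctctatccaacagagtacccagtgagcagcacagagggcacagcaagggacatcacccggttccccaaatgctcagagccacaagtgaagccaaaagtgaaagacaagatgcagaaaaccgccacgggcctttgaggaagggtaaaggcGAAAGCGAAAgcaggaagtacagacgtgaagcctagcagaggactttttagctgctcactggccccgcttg
The match of TGACNNNGC in PSMB3 begins at base -104 from the start, and its CCAAT matches at -55 and -13. The GAAA repeat begins at -68 in PSMB4 and at -21 in PSMB10. A match describes the letters of the window and is no evidence of binding in these cells.

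Genes that work with the proteasome were followed as lists, chosen with earlier results of these data known and read against the same 7.86% and 5.93% of all genes. Of 8 regulators of proteasome gene transcription 1 rose and 1 fell. NFE2L2, which encodes NRF2, an activator at antioxidant response elements, had 100.3, 104.2 and 117.6 CPM in siSLU7 cells against 68.4, 57.0 and 56.1 CPM in siGL2 cells (0.83, SE 0.15, edgeR adjusted p = 0.0141). MAFK, which encodes a small MAF partner of these activators, had 41.7, 40.9 and 44.5 CPM in siSLU7 cells against 68.4, 119.6 and 86.3 CPM in siGL2 cells (-1.11, SE 0.21, edgeR adjusted p = 0.0153). Both genes had groups without overlap. NFE2L1, the activator known to drive proteasome genes when the proteasome is inhibited, overlapped between groups (-0.27, edgeR adjusted p = 0.363).

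Among the ubiquitin genes, UBA1 and UBB fell. UBA1, which encodes the main ubiquitin-activating enzyme, had 38.9, 36.5 and 37.6 CPM in siSLU7 cells against 69.1, 85.2 and 68.5 CPM in siGL2 cells. Its groups lay far apart (-0.98, SE 0.15, edgeR adjusted p = 0.00968). The polyubiquitin gene UBB had 106.7, 116.5 and 121.5 CPM in siSLU7 cells against 167.4, 174.9 and 159.8 CPM in siGL2 cells, also without overlap (-0.54, SE 0.14, edgeR adjusted p = 0.0395). Of 10 tested shuttles and unfoldase genes 2 rose, UFD1 (0.52), a cofactor of the unfoldase VCP, and ZFAND5 (0.75), which binds the proteasome, with edgeR adjusted p of 0.0401 and 0.0451.

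Of 11 tested genes of MHC class I and interferon signalling 1 rose and 1 fell. IRF1, a transcription factor that drives immunoproteasome genes, had 16.0, 14.4 and 18.7 CPM in siSLU7 cells against 9.04, 5.63 and 7.41 CPM in siGL2 cells (1.15, edgeR adjusted p = 0.0167). All siSLU7 libraries were above all siGL2 libraries in IRF1, where PSMB8 had 0 counts and PSMB9 overlapped. PSMB10 was lower in all siSLU7 libraries and missed the threshold (-1.53, edgeR adjusted p = 0.0544). TAPBP, which encodes tapasin of the peptide loading complex, was lower (-0.58, edgeR adjusted p = 0.0336). None of the 5 assembly factors and subunits with other symbols passed, among them the ubiquitin receptor ADRM1 (-0.47, edgeR adjusted p = 0.0542) and the core assembly factor POMP (0.17, edgeR adjusted p = 0.652). None of the 4 deubiquitinases and ligases of the proteasome passed either, and UBE3C had the smallest p of them (0.32, edgeR adjusted p = 0.208).

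Reads may be shared with other genes, since 19 of the 48 members share exon bases with a gene on the opposite strand and 8 with a gene on the same strand. None of the 8 called genes is among these. PSMC1 shares the largest part, 75.8% of its exon bases, with NRDE2. Processed pseudogenes of the members held few counts, at most 4.21% of those of their parent gene, except those of PSMD10, with 55.2%. With pseudogene counts added to the parents, the same 8 genes fell.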

How the data were processed

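RNA of 6 libraries was extracted with TRIzol and made into polyA RNA libraries with a ScriptSeq kit, per the labels' protocols. FastQC 0.11.8, Trimmomatic 0.38, kallisto 0.46.1, sleuth 0.30.0 and the build GRCh38 are named, with no role or order, per the submitters' processing notes. The deposited tables give, per the file headers, the authors' estimated counts and TPM for 234485 transcripts per library, with each transcript's effective length; estimated counts are not normalized, and TPM is scaled by length and library. Strand setting, annotation release and quantifier replicates: not given in the sources used here. The uncertainty of splitting reads between transcripts was not modelled.

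The 159 records of the pseudoautosomal regions on Y were added to those on X. Estimated counts were rounded per transcript and summed per gene, or per gene and transcript type. The main test was edgeR 4.0.16 in R 4.3.3: TMM scaling, filterByExpr (minimum count 10, total 15), the quasi-likelihood test of siSLU7 against siGL2 without a covariate over all 6 libraries, and Benjamini-Hochberg adjustment over all features at 0.05. Type usage was tested with edgeR's diffSpliceDGE. Alternatives were DESeq2 1.42.0, limma 3.58.1 on log2(TPM + 1), other filters, scalings, length and GC offsets, coding transcripts alone, a replicate block and each library left out. Fits were run on simulated counts with known changes, the same spread setting for every feature and no library that stood apart. That run could not check error rates under the spread of the real libraries.

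The members and lists were chosen with earlier results of these data known. Named genes are those past the gene test, the catalytic subunits and the member with the smallest p in each role, and in partner lists those past the test, at most 4, or the 1 with the smallest p, with NFE2L1 and POMP in any case; other names were chosen after their values were seen. Part of the ubiquitin list is not reported here. Intervals of fold changes come from the edgeR fit and include the spread between libraries; floors cover counting error only.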

Additional observations from a re-analysis of the deposited data

How the results depend on the processing

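The count of 8 called proteasome genes lay between 7 and 9 with DESeq2, no filter or a stricter one, RLE scaling, other rounding, offsets for GC content with gene length, and added pseudogene counts. With transcript length offsets 5 members fell, 4 of them among the 8, and 1 rose. The count was 4 (all higher) with limma on TPM, 14 without both libraries that stood apart, and between 0 and 13 with 1 library left out. Against 6 called gene and type pairs, 10 were called with no filter, 27 without both libraries, and between 0 and 21 with 1 left out. For transcripts 2 were called with no filter, against 0. For usage, 8 genes were called without both libraries and between 1 and 6 with 1 left out, against 2. SLU7 changed by -0.063 in limma on TPM, -0.65 with length offsets and between -1.11 and -0.93 with 1 library left out, past the threshold in none of these except some of the last. The ratio of PSMB10 to PSMB7 was 1.23 on coding transcripts alone. The cause of these differences was not tested.

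Fits with a replicate block called 0 genes, 0 type pairs and 1 usage gene among the members, with SLU7 at -1.02, and 0.0% of all genes. The labels do not say that replicate numbers mark a shared batch. Deviations of same-numbered libraries correlated at -0.41, 0.11 and -0.37. The libraries that stood apart carry different numbers and correlated at 0.44, and with so few libraries per group they may set these values. The correlations therefore cannot decide whether the numbers pair the libraries.

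With limma on TPM, signs turned for PSMA1 (0.12), PSMA4 (0.32), PSMB2 (0.28), PSMD13 (0.07), PSMD2 (0.31), PSMB9 (0.15) and PSME1 (0.0037). They also turned there for PSMC1 (0.21), PSMD7 (0.69), PSMD10 (0.43), ADRM1 (0.17) and NFE2L1 (0.20), and for other members that are not named. On that scale 14 of the 45 members lay below 0, against 30 in the main fit. The sign of PSMB9 also turned without replicate 3 of siSLU7 (0.14) and without both libraries (0.051). PSMF1 turned to 0.041 and 0.0082 without replicates 2 and 3 of siGL2, 0.03 without replicate 1 of siSLU7 and 0.22 on coding transcripts alone. With 1 library left out, PSMB9 ran between -0.51 and 0.14 and PSMF1 between -0.14 and 0.041. With GC and length offsets ADRM1 was 0.11 and POMP -0.056, and POMP was -0.047 without both libraries. Depth limits PSMB8, PSMB9 and PSMB10, at 44 counts or fewer per library, and PSMA8 and PSMB11, at 1 or fewer.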
